A study of Mus musculus with 30 samples.

Results

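Brain of newborn mice that lack ERRγ was compared with brain of wild-type newborns. The 3 arrays titled as knockout brain and the 3 titled as wild-type brain were taken, 6 of the 30 arrays in the series, and all 22626 probe sets that are not array controls were considered. The study measured total RNA of salivary tissue, liver, stomach, kidney and brain on Affymetrix MOE430A arrays, which carry short probes for mouse transcripts. The series is titled for potassium homeostasis of heart, stomach and kidney. All mice were on a mixed SV129/C57BL/6 background, neonatal and of unknown sex by the labels, fed standard chow, and the labels give genotype as the only difference between the groups. The labels do not name the null allele, the dissected brain region or the animal behind each array, so p-values measure only how far these arrays spread, and that spread may be partly technical.

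ERRγ is the product of Esrrg. It belongs to the estrogen-related receptors, nuclear receptors that act without a known natural hormone. Together with the coactivators PGC-1α and PGC-1β it switches on genes of oxidative phosphorylation, the tricarboxylic acid cycle and fatty acid oxidation in heart, kidney and other tissues of high energy use. In the brain it is found mainly in neurons, where it is known for supporting oxidative metabolism.

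Esrrg had 1 dim probe set on chromosome 1. It read 5.92, 6.22 and 5.89 log2 units in the 3 wild-type arrays and 6.32, 6.02 and 6.18 in the null arrays. The groups overlapped. Where the probes lie relative to the deletion was not known here, so the reading does not check the genotype labels. The related receptor Esrra read 6.15, 6.06 and 5.62 against 5.90, 6.19 and 6.05, a difference of 0.10 ± 0.20 (SE), and Esrrb was too dim to be tested. Receptors and their coregulators together had 11 tested genes, 1 higher and 0 lower at an unadjusted p under 0.05, beside 4.95% and 4.6% of all tested genes. That one was the coactivator Ncoa3, at 6.31, 6.49 and 6.26 against 6.86, 6.57 and 6.78, with an adjusted p of 0.426 (limma). Ppargc1b, which encodes PGC-1β, read 7.17, 6.79 and 6.71 against 6.82, 6.33 and 6.32 and overlapped.

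To show what the receptor's sites look like, promoter stretches are given for members of the gene lists that hold a match in the 250 bases before a transcript start (RefSeq, build GRCm38.p6, both strands searched). The motif TCAAGGTCA, which estrogen-related receptors bind, lay in 0.387% of 32851 promoters of that length. Among 159 genes of mitochondrial energy metabolism and of the mitochondrial ribosome with a listed promoter, 2 held it. That is 1.26% beside 0.422% of all 27025 genes. The 2 were Atp5g3, a subunit of the ATP synthase ring, and Acsl6, which activates fatty acids in brain. Capitals mark the match.
Atp5g3, chr2:73911345-73911403, minus strand: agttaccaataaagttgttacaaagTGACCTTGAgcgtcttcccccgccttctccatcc
Acsl6, chr11:54303632-54303690, plus strand: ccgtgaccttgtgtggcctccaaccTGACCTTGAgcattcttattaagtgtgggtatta
Both genes sat close to their wild-type level. Atp5g3 read 11.92, 11.81 and 11.73 in wild-type arrays against 11.78, 11.81 and 11.70 in null arrays, and Acsl6 read 7.90, 7.87 and 8.18 against 7.89, 8.18 and 7.71. The groups overlapped for both, with differences of -0.06 ± 0.08 and -0.06 ± 0.15.

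A second pair of stretches comes from genes that answer directly to glucocorticoids, described further on because they read higher in null brain. The palindrome bound by the glucocorticoid receptor, AGAACA facing its reverse complement across 3 bases, lay in 0.00913% of promoters. A looser form from GNACA, which any match of the first also satisfies, lay in 0.387%. Counted by gene, the shares were 0.0111% and 0.44%. Of 22 genes in the glucocorticoid list with a promoter in the table, Sgk1 held both motifs and Mt1 the looser one. Sgk1, a kinase that sets ion channel abundance, also held the estrogen-related receptor motif at other starts, and Mt1 encodes a metal-binding metallothionein.
Sgk1, chr10:21993676-21993740, plus strand, glucocorticoid palindrome: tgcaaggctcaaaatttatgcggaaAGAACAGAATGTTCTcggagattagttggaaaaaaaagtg
Sgk1, chr10:21985975-21986033, plus strand, estrogen-related receptor motif: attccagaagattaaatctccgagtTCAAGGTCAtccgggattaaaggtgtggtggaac
Mt1, chr8:94178970-94179032, plus strand, looser palindrome: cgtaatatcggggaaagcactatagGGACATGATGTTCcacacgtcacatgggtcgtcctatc
Of the 24 genes with the smallest p-values named further on, 19 had a promoter in the table and 0 held any of the 3 motifs there. A match describes letters in this window and says nothing about binding.

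The brain arrays had medians between 5.89 and 6.07 log2 units. Pairs of wild-type arrays correlated at 0.978 to 0.983 over the tested probe sets (Pearson, across probe sets, which are not independent), and pairs of null arrays at 0.959 to 0.961. Null replicate 2 correlated better with the wild-type arrays (median 0.975) than with the other null arrays (median 0.960). The gap between 3' and 5' control probe sets, averaged over Gapdh and Actb, which grows as RNA degrades, was 2.30 ± 0.18 in wild-type arrays and 2.36 ± 0.23 in null arrays (SD, n = 3; exact two-sided permutation test, p = 0.7, where 0.1 is the smallest this design can give). Each group held 2 arrays with high and 1 with low Xist, the RNA of the inactive X chromosome. The labelled tissue was borne out by its markers, with Tubb3, a tubulin of neurons, between 9.91 and 10.35 on all 6 arrays.

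Null replicate 1 stood apart, with high readings for markers of pituitary, muscle and connective tissue. The labels do not describe the dissection, and the source of these transcripts was not tested. Growth hormone Gh, made in the pituitary, read 11.31 there and 4.16 to 5.07 on the other 5 arrays. Pomc, the precursor of corticotropin, read 8.07 against 5.94 to 6.79, and Cga, the shared subunit of several pituitary hormones, 7.13 against 3.40 to 5.18. Skeletal muscle actin Acta1 read 8.92 against 4.56 to 5.38. The troponin Tnnc2 of fast muscle was at 7.52 against 0.96 to 2.12. Collagen Col1a1 of connective tissue was at 9.25 there and between 6.37 and 7.14 elsewhere. Summed over the lists on a linear scale, the 9 pituitary markers came to 3545 on null replicate 1 and 504 to 687 on the other arrays, and the 14 muscle markers to 1789 against 245 to 296. Of these markers 5 of 9 and 12 of 14 were higher there than on every other array, while the pituitary hormone Prl stayed at 2.04. Connective tissue markers, 20 genes, summed to 10278 on that array and to between 6277 and 6520 on the others. Null replicate 3 stood apart in another way. It correlated least with the wild-type arrays (median 0.958, against 0.963 for null replicate 1), and 55 probe sets lay 2-fold or more below every other array there, against 31 on null replicate 2, 17 on null replicate 1 and 6 on each wild-type array. For the gene lists below, counts without null replicate 1 are given beside those from all arrays, and other arrays are named where leaving them out moved a count.

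**Figure D1:**
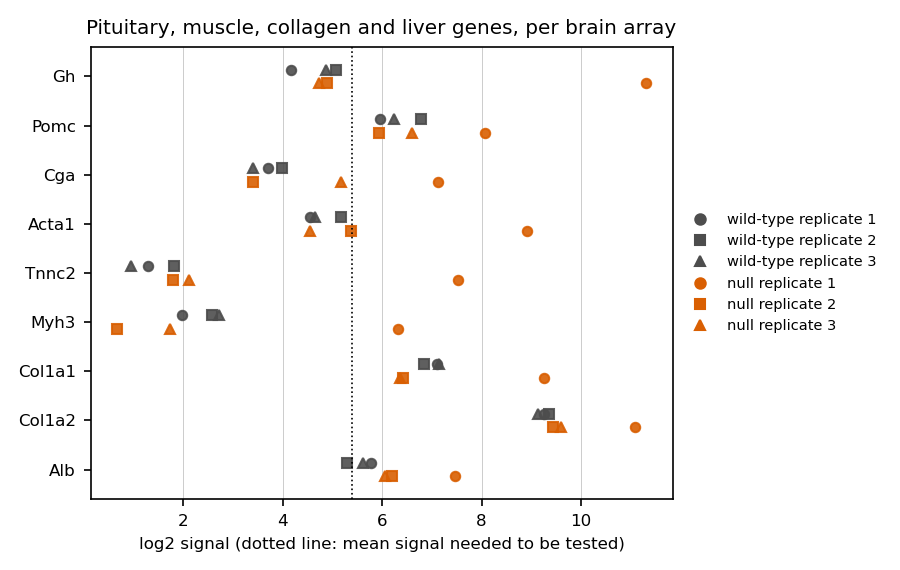
Log2 signal of 9 genes on each of the 6 brain arrays, with wild-type arrays in grey, null arrays in orange and the replicate number as marker shape. Null replicate 1 stands to the right of every other array for all 9 genes, as for Gh at 11.31 against at most 5.07.

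A probe set was tested if its brain mean was at or above the 40th percentile, log2 5.39, which left 13577. With limma and Benjamini-Hochberg adjustment, 0 of 13577 passed an adjusted p of 0.05 (0%), and the smallest adjusted p was 0.0991. At an unadjusted p under 0.05, limma gave 1426 probe sets (10.5%), 630 of them higher in null brain (4.64%) and 796 lower (5.86%). Groups were fully apart, with no overlap, for 1105 probe sets higher in null (8.14%) and 1022 lower (7.53%). Differences of 2-fold or more numbered 24 higher and 19 lower. The median difference over all tested probe sets was 0.01 log2 units. Spread was larger among null arrays, with a median SD of 0.20 against 0.13 in wild-type and a larger SD in null for 69.1% of probe sets. Without null replicate 1 the count that passed was again 0, and without null replicate 2 it was 56 (0.412%), of which 20 were higher and 36 lower. Among those 56 were Klf9, Timp3, Stk39, Ywhaq and the glucose transporter Slc2a1. Since no difference passed with all 6 arrays, the genes below are given as values.

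Adult-type globin transcripts gave the smallest p of all. Globin is the protein part of haemoglobin in red cells. These probe sets match several near-identical globin genes each and name no single one, so a value stands for the family. The alpha globin probe set 1452757_s_at read 10.22, 10.18 and 9.97 in wild-type brain against 11.07, 10.92 and 11.36 in null brain, a difference of 0.99 ± 0.12 (SE, n = 3 per group; limma, adjusted p = 0.0991). A second alpha probe set, 1428361_x_at, read 11.10, 10.94 and 10.83 against 11.96, 11.76 and 12.42, a difference of 1.09 ± 0.15 (limma, adjusted p = 0.123). The beta globin probe set 1417184_s_at read 10.71, 10.79 and 10.58 against 11.78, 11.42 and 12.21, a difference of 1.11 ± 0.17 (limma, adjusted p = 0.145). All null values lay above all wild-type values in each, and null replicate 3 was the highest array throughout. The dim alpha probe set 1417714_x_at read 5.13, 5.23 and 5.37 against 6.50, 6.42 and 7.31. Its wild-type mean of 5.24 lay under the filter level, so it was tested through its null values, and its difference of 1.5 was 0.76 after adding 64 to each signal. Without null replicate 1 the first 3 differences were 1.02, 1.13 and 1.12, none passing, and without null replicate 2 they were 1.09, 1.23 and 1.30 with limma adjusted p of 0.0152, 0.0152 and 0.0122.

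Other red cell genes were too dim to follow the globins. Alas2, the first enzyme of haem synthesis in red cells, read 2.77, 3.11 and 3.74 in wild-type arrays against 5.57, 4.27 and 6.33 in null arrays. The groups did not overlap, but these levels lie mostly under the level needed for testing. Of 11 erythroid markers with a probe set, 1 was tested, Gata1, with a difference of 0.06 ± 0.27. Their summed linear signal was 208 to 241 in wild-type arrays against 306, 172 and 306 in null arrays, so null replicate 2 was the lowest of all 6. In whole tissue, more red cells and more globin RNA per cell cannot be told apart.

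In kidney, liver and salivary tissue the 4 globin probe sets differed by between -0.02 and 0.41. In stomach all 4 were lower in null, with differences between -1.45 and -0.27. The null minus wild-type difference of 1428361_x_at was 0.03 in kidney, 0.06 in liver, 0.12 in salivary tissue and -0.44 in stomach. Set against the mean of those 4 differences, the brain difference was larger by 1.15 ± 0.25 (limma over all 30 arrays, adjusted p = 0.0286). For the beta probe set 1417184_s_at the excess in brain was 1.10 ± 0.27 (limma, adjusted p = 0.0476), and 1452757_s_at missed the threshold with 1.11 ± 0.27 (adjusted p = 0.0516). The globin contrast in brain thus differed from that of the other tissues for 2 of the 4 probe sets. The call of 1428361_x_at was lost without null replicate 3 or any 1 of the wild-type arrays. That of 1417184_s_at was lost without any 1 brain array but null replicate 2, and also with the replicate number as a block within tissue (limma, adjusted p = 0.0645), without kidney (0.0545) and without liver (0.0622).

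Among probe sets with 1 gene symbol, the 12 higher ones of smallest p began with Ptov1, a regulator of transcription and translation. It read 4.70, 5.05 and 4.64 in wild-type brain against 6.19, 6.65 and 6.79 in null brain, a difference of 1.75 ± 0.22 (limma, adjusted p = 0.0991). Its wild-type mean of 4.8 lay under the filter level of 5.39, so it was tested through its null values, and the difference was 1.53 with values floored at a signal of 32 and 0.78 after adding 64 to each signal. Its other tested probe set was also higher, by 0.81. Timp3, an inhibitor of matrix metalloproteinases, read 6.42, 6.48 and 6.18 against 7.85, 7.14 and 7.43, a difference of 1.11 ± 0.19 (limma, adjusted p = 0.182). Of its other 2 tested probe sets 1 was higher and 1 lower, and in a fit over all 30 arrays Timp3 passed with an adjusted p of 0.0143. Faap24, part of the Fanconi anaemia complex that repairs crosslinked DNA, read 6.68, 6.43 and 6.39 against 7.21, 7.54 and 7.51. Lpcat1, which remodels phosphatidylcholine, differed by 0.79 ± 0.13 with both of its other probe sets in the same direction. Neither Faap24 nor Lpcat1 overlapped between groups, and neither passed.

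The chromatin and transcription subunits Msl1 and Taf6 differed by 0.83 ± 0.15 and 0.68 ± 0.14, and the exonuclease Exd2 by 0.81 ± 0.18. Msl1 is uncertain, since its other 2 tested probe sets differed by -0.02 and -0.04. Cbln1, a secreted organizer of synapses best known from the cerebellum, read 7.93, 7.46 and 7.83 against 8.41, 8.42 and 8.41. Its brightest probe set differed by -0.18, so its probe sets disagree. Apod, a lipid carrier of glia, read 7.90, 8.19 and 7.71 against 8.55, 8.53 and 8.56. The group had 2 glucocorticoid targets as well, Mt2 and Klf9, given further on. None of these values overlapped between the groups on the probe set named.

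Lyplal1, a lysophospholipase-like enzyme, lies on chromosome 1 within 20 Mb of Esrrg. It read 6.56, 6.52 and 6.32 in wild-type brain against 7.45, 7.35 and 6.91 in null brain, a difference of 0.77 ± 0.17 (limma, adjusted p = 0.318), and passed in the fit over all 30 arrays (adjusted p = 0.0337). The same gene was higher by 0.61 in kidney, 0.76 in stomach and 0.58 in salivary tissue and differed by -0.15 in liver. Ints7, a subunit of the Integrator complex in the same interval, read 7.06, 7.01 and 7.16 against 6.16, 6.49 and 6.62. Over the 115 tested genes within 20 Mb of Esrrg, 4 were higher and 4 lower at an unadjusted p under 0.05, beside 4.95% and 4.6% of all 8410 tested genes taken by their brightest probe set. Their median difference was 0.02, the same as that of all genes.

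The 12 lower genes of smallest p began with Ywhaq, the 14-3-3 theta adaptor protein. It read 9.87, 10.02 and 9.84 in wild-type brain against 8.92, 9.32 and 8.91 in null brain, a difference of -0.86 ± 0.13 (limma, adjusted p = 0.145). The 6 other tested Ywhaq probe sets differed by between -0.60 and -0.06, the brightest of them by -0.06, so the size is uncertain. The probe set read out here passed in the fit over all 30 arrays (limma, adjusted p = 0.0143). Ppp1cb, a catalytic subunit of protein phosphatase 1, read 7.53, 7.60 and 7.89 against 6.99, 6.54 and 6.71, with its other 3 probe sets in the same direction. Rpe, an epimerase of the pentose phosphate pathway, read 7.17, 7.16 and 7.17 against 6.48, 6.51 and 6.53. For these 3 genes every null array lay under every wild-type array on the probe set read out.

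The others among the 12 have varied roles. The RNA helicase Ddx39a read 8.0, 8.46 and 8.35 against 7.59, 7.30 and 6.79, with all 4 other probe sets lower, and the splicing factor Srsf10 differed by -0.75 ± 0.15. Stk39, the kinase SPAK that acts on cation-chloride cotransporters, read 7.78, 7.80 and 7.79 against 6.61, 7.26 and 6.35. Its difference of -1.05 ± 0.21 (limma, adjusted p = 0.293) grew to -1.31 without null replicate 2, where it passed. Fut9, which makes the Lewis X sugar of neural progenitors, differed by -0.96 ± 0.19, the protease gene Prss40 by -1.04 ± 0.20 and the cyclin Ccni by -0.59 ± 0.13. Ccni is uncertain, as its other 2 probe sets differed by 0.02 and -0.01.

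**Figure D2:**
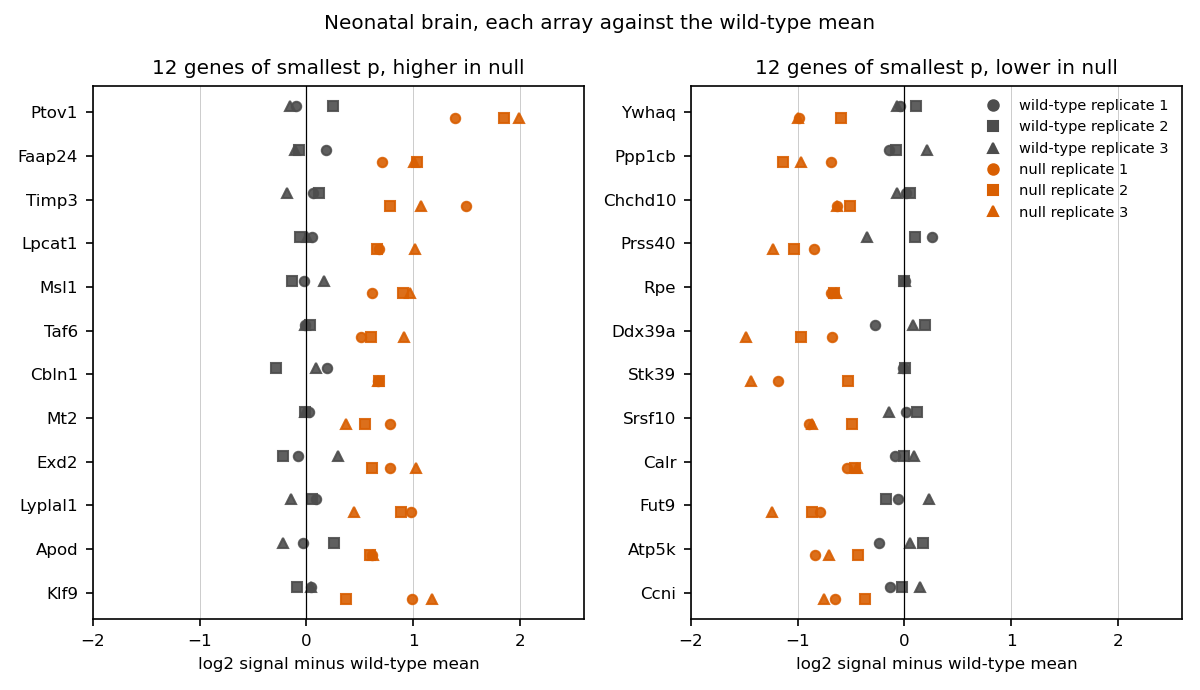
Log2 signal of each array minus the wild-type mean for the 12 genes of smallest p that were higher and the 12 that were lower in null brain, wild-type arrays in grey and null arrays in orange. Groups do not overlap for any of the 24, and none passed the adjusted threshold. Ptov1 lies farthest right at 1.75, from a wild-type mean under the filter level.

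Leaving out an array could not change the sign of these 24 differences, since their groups do not overlap. Without null replicate 1 they were 0.806 to 1.17 times the values given, without null replicate 2 0.888 to 1.28 times and without null replicate 3 0.791 to 1.21 times. Adding 64 to each signal, which damps dim probe sets, shrank 9 of them by over 1.5 times, namely Ptov1, Fut9, Prss40, Exd2, Faap24, Lyplal1, Msl1, Rpe and Timp3.

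Mitochondrial energy genes, the class that estrogen-related receptors are known for, lay around their wild-type level. Of 80 tested genes of oxidative phosphorylation, 0 were higher and 6 lower at an unadjusted p under 0.05 (limma; 0 passed after adjustment), which is 7.5% lower beside 4.6% of all genes. Their median difference was 0.02, like that of all genes, and 43 of the 80 lay above 0. Leaving out null replicate 1 gave 2 higher and 7 lower, with a median of 0.05. Complex I, the entry point of electrons, had 33 tested genes with a median of -0.03 and 2 lower. Its accessory subunit Ndufb6 read 9.28, 9.40 and 9.58 against 8.88, 9.28 and 8.10 and overlapped.

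The individual energy genes with the smallest p were lower. Atp5k, a small subunit of ATP synthase, read 10.82, 11.23 and 11.11 in wild-type brain against 10.22, 10.62 and 10.35 in null brain, a difference of -0.66 ± 0.13 (limma, adjusted p = 0.293), but its other 2 probe sets differed by -0.14 and 0.04. Chchd10, a protein of mitochondrial cristae, read 8.63, 8.66 and 8.54 against 7.98, 8.10 and 7.98. Cycs, the electron carrier cytochrome c, read 10.85, 10.98 and 10.91 against 10.04, 10.75 and 10.38. The oxidase subunit Cox5a and the outer membrane channel Vdac3 differed by -0.26 ± 0.08 and -0.38 ± 0.10. These did not overlap between groups.

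ATP synthase subunits and nucleotide carriers had 2 lower of 21 with a median of 0.01, but 5 lay fully below wild-type, which is 23.8% beside 6.48% of all genes. The tricarboxylic acid cycle had 19 tested genes, 0 higher and 2 lower (10.5% beside 4.6% of all genes). The 2 were Mdh1 (-0.44 ± 0.13) and Aco1 (-0.38 ± 0.13). The median of the cycle was -0.07, and 6 of its genes lay above 0. Fatty acid oxidation had 1 higher, Acadvl at 0.49 ± 0.19, and 2 lower of 24 (8.33%), with a median of 0.05. The cycle had 1 higher and 2 lower without null replicate 1, and fatty acid oxidation 2 higher and 0 lower. The mitochondrial ribosome had 3 higher and 5 lower of 59 and a median of -0.04, and the lower count, 8.47%, was 3 without null replicate 1 and 1 without wild-type replicate 2. Glycolysis and glucose uptake had 2 higher, Pfkm and Slc2a1, and 0 lower of 16. Slc2a1, the glucose transporter of the blood-brain barrier, read 8.54, 8.34 and 8.04 against 9.76, 8.33 and 9.12 and overlapped through null replicate 2. The coactivator Ppargc1a read 7.49, 7.38 and 7.25 against 7.18, 7.07 and 6.54 on one probe set, and its other 4 tested probe sets differed by between -0.10 and 0.13.

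The energy lists can be read beside the other tissues. The median difference of complex I genes was -0.03 in brain. Elsewhere it was -0.22 in kidney, -0.25 in liver, -0.29 in stomach and 0.09 in salivary tissue. Of 80 oxidative phosphorylation genes 1, Atp5g1, passed the test of the brain difference against the mean of the other tissues, with a difference of 0.09 in brain and -0.93 on average elsewhere.

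Ion transport, the subject in the title of the series, was covered by 4 lists. Of 26 tested potassium channel genes 0 were higher and 0 lower at an unadjusted p under 0.05, beside 4.95% and 4.6% of all genes, with a median of 0.06. Counts without null replicate 1 were 0 higher and 1 lower. Kcnh2, the channel of the rapid repolarizing current, read 6.63, 6.31 and 6.39 against 7.15, 6.39 and 7.21, and Kcnj10, the potassium channel of astrocytes, 6.11, 5.76 and 5.87 against 5.92, 6.34 and 6.27. Both overlapped. Among the 73 listed channel genes, 56 had a probe set and 30 of these were too dim to be tested. The sodium-potassium pump list had 1 higher of 9, the subunit Atp1b3 at 0.34 ± 0.15, and 0 without null replicate 1. The cation-chloride cotransporter list, which includes their kinases, had 1 lower of 8 (12.5%), Stk39, given above, and 2 lower without null replicate 1. Sodium, calcium and HCN channels had 2 higher (10.5%) and 1 lower (5.26%) of 19, the same counts without null replicate 1. Among them Cacng2, the auxiliary protein stargazin, read 5.38, 6.05 and 5.81 against 6.34, 6.20 and 6.93 without overlap.

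Genes of transmission between neurons gave single values. Glutamate receptors had 0 higher and 0 lower of 6, and receptors for GABA and glycine had 1 lower of 9. It was Gabrg1, a GABA receptor subunit, at 7.81, 7.73 and 7.61 against 7.29, 7.52 and 7.10. Of 21 genes of the synaptic vesicle and presynaptic terminal 1 was higher, Dnm1, and 1 lower, Snap25. Dnm1, the dynamin that pinches off synaptic vesicles, read 8.67, 8.70 and 8.94 against 9.51, 9.08 and 9.19, and Snap25, a fusion protein of the same vesicles, read 9.89, 9.91 and 10.26 against 9.76, 9.73 and 9.36. Both were apart between groups. Of 18 neuropeptides 1 was higher, Nmb, with a difference of 0.50 ± 0.21. These shares, 4.76% of presynaptic genes in each direction and 5.56% of neuropeptides, are close to those of all genes. The presynaptic list again had 1 higher and 1 lower without null replicate 1, and the neuropeptides 1 of each.

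Genes that answer directly to glucocorticoids mostly read higher in null brain. Of 25 listed genes 22 were tested, 13 were higher and 0 lower at an unadjusted p under 0.05 (limma), which is 59.1% beside 4.95% of all genes. The groups were fully apart for 9, 40.9% beside 8.59%, and 21 of 22 differences were above 0. The median was 0.40 beside 0.02 for all genes. No member passed after adjustment over all probe sets.

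Members of this list are taken in turn. Mt2, a metallothionein that buffers zinc and copper, read 9.34, 9.30 and 9.30 in wild-type brain against 10.10, 9.86 and 9.68 in null brain, a difference of 0.57 ± 0.12 (limma, adjusted p = 0.310). Per1, a clock repressor that glucocorticoids induce, read 5.90, 5.23 and 5.90 against 7.05, 6.67 and 6.32, a difference of 1.0 ± 0.24. Tsc22d3, the anti-inflammatory protein GILZ, read 6.60, 6.76 and 7.0 against 7.69, 7.35 and 7.28. In these 3 genes all null arrays exceeded all wild-type arrays.

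Klf9, a transcription factor induced by glucocorticoid and thyroid hormone, read 8.90, 8.85 and 8.83 against 9.87, 9.06 and 9.87 on its brightest probe set. Sgk1, whose promoters are shown above, read 8.16, 8.24 and 7.94 against 8.48, 8.47 and 8.50, a difference of 0.37 ± 0.12. Errfi1, an inhibitor of the EGF receptor, read 7.66, 7.54 and 7.37 against 8.55, 7.79 and 8.01. Again the groups were apart, with null replicate 2 the lowest null array for Klf9 and Errfi1. Cebpd, an early transcription factor, read 5.16, 4.88 and 4.71 against 7.78, 5.30 and 5.93, with null replicate 1 far above the rest. Its wild-type mean lay under the filter level, the only one of the 22 members to do so. Mt1 read 8.39, 7.80 and 7.91 against 9.39, 8.19 and 8.87 and overlapped. Fkbp5, a chaperone that dampens the receptor, read 8.23, 8.25 and 8.0 against 8.62, 8.15 and 8.35.

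The count depended on which array was left out. Without null replicate 1, where Pomc and other pituitary genes were high, 7 of the 22 were higher at an unadjusted p under 0.05, with a median of 0.34, and 10 did not overlap (45.5%), beside 15% of all genes without that array. Without null replicate 2, 16 were higher, the median was 0.58 and 3 passed after adjustment over all probe sets (limma). The lowest count, 6 higher with a median of 0.35, came without wild-type replicate 3, and at least 20 of the 22 differences stayed above 0 whichever of the 6 arrays was left out. As background to these and later counts, 5.07%, 9.54% and 3.16% of all genes were higher without null replicates 1, 2 and 3, and 5.27%, 7.87% and 2.98% lower. Without wild-type replicates 1, 2 and 3 the shares were 3.61%, 3.14% and 2.89% higher and 3.17%, 2.97% and 2.4% lower. Pituitary markers and the glucocorticoid list were thus both high on null replicate 1, and the part of the former in the latter was not tested, beyond the values without that array.

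The same list was further from wild-type in every other tissue, with medians of 0.78 in liver, 0.89 in kidney, 1.04 in stomach and 1.27 in salivary tissue. The brightest probe set of 0 of the 22 genes passed the test of brain against the mean of the other tissues. Other probe sets of Klf9 and Tsc22d3 did, each with a brain difference of 0.21 and with gaps to the other tissues of -1.07 and -1.03.

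**Figure D3:**
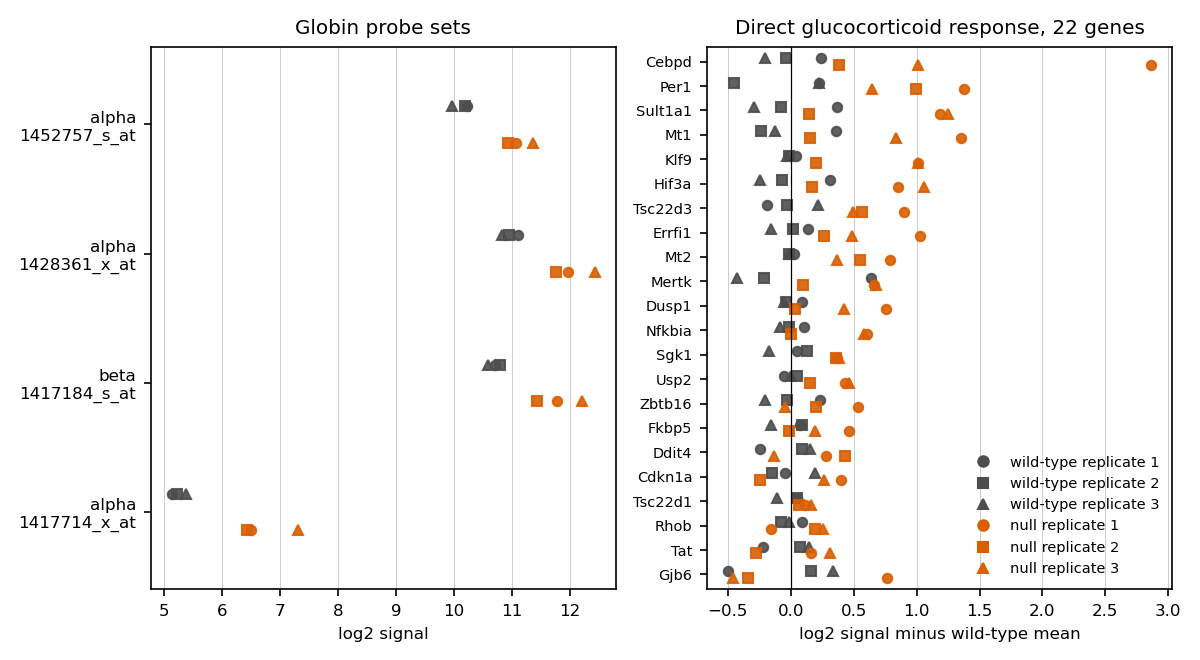
Left, log2 signal of 4 globin probe sets on each brain array; right, log2 signal minus the wild-type mean for the 22 tested genes of the direct glucocorticoid response, sorted by difference. Null arrays (orange) lie above wild-type arrays (grey) for all 4 globin probe sets and for 9 of the 22 genes, and Cebpd on null replicate 1 is the point farthest right.

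Lists that overlap in membership or regulation showed smaller shifts. Their shares stand beside 4.95% of all genes higher and 4.6% lower at an unadjusted p under 0.05. The circadian list had 3 higher of 12 (25%), Per1, Tef and Usp2, of which Per1 and Usp2 are also in the glucocorticoid list. It had 1 higher without null replicate 1 or wild-type replicate 1, and 5 without null replicate 2. Immediate early genes, which neurons induce within minutes of stimulation, had 3 higher (15.8%) and 0 lower of 19. The count was 0 and the median 0.02 in place of 0.16 without null replicate 1, where Fos read 8.92 against 6.05 to 6.62 elsewhere. It was also 0 without wild-type replicate 2, 1 without wild-type replicate 1 or 3, and 6 without null replicate 2. The amino acid stress list had 4 higher (19%) and 0 lower of 21 with a median of 0.15, namely Slc3a2, Atf4, Asns and Sars at 0.28 to 0.40. The count was 4 without null replicate 1 and 2 without null replicate 3 or wild-type replicate 1.

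The starvation and low-insulin list had 4 higher (25% beside 4.95% of all genes) and 1 lower of 16, with a median of 0.08. It had 3 higher and 1 lower without null replicate 1. Angptl4, a lipase inhibitor released in fasting, read 7.37, 7.51 and 7.33 against 7.82, 7.74 and 7.96, and Klf15, a fasting regulator that glucocorticoids also induce, read 6.16, 5.54 and 5.87 against 6.47, 6.38 and 6.44. Neither overlapped. Sesn1 and Irs2 differed by 0.67 ± 0.20 and 0.53 ± 0.22 and the cell cycle inhibitor Cdkn1b by -0.64 ± 0.19, and these 3 overlapped. Without wild-type replicate 2 the list had 2 higher. The hypoxia list was split, with 3 higher (14.3%) and 2 lower (9.52% beside 4.6% of all genes) of 21. Its median was -0.03, and it had 2 higher and 4 lower without null replicate 1. Heat shock and cholesterol synthesis lists had 1 higher and 1 lower each, of 22 and 20.

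Genes of endoplasmic reticulum stress and of its chaperones were more often lower than higher. Of 23 tested genes 7 were lower and 3 higher at an unadjusted p under 0.05, 30.4% lower beside 4.6% of all genes, with a median of -0.16. The counts were the same without null replicate 1, and without wild-type replicate 3, 4 were lower. Calr, a calcium-binding chaperone, read 10.11, 10.22 and 10.29 in wild-type brain against 9.73, 9.91 and 9.73 in null brain, with its other 2 probe sets lower by a like amount. Canx, its membrane-bound relative, read 9.95, 10.12 and 10.22 against 9.74, 9.82 and 9.50. Dnajc3, Edem1, Hsp90b1, Xbp1 and Pdia6 made up the other 5 that were lower. The 3 that were higher were the chaperone Dnajb11 and the stress genes Atf4 and Asns, which the amino acid stress list also holds. Hspa5, the central chaperone of this compartment, differed by 0.02 ± 0.12 on its brightest probe set and by -0.44 on another.

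Cytoplasmic ribosomal protein genes mostly read slightly higher. Of 36 tested, 10 were higher and 0 lower at an unadjusted p under 0.05, 27.8% beside 4.95% of all genes. For 12 of the 36 the null arrays lay fully above wild-type, beside 8.59% of all genes. Differences of 29 of the 36 lay above 0, with a median of 0.11. Rpl41 read 12.22, 12.09 and 12.13 against 12.44, 12.32 and 12.76, and Rplp2 read 11.37, 11.39 and 11.34 against 11.55, 11.55 and 11.69. Sequence shared with pseudogenes makes single members of this family uncertain. Without null replicate 1, 11 were higher and 1 lower, and the count of higher genes was 5 without null replicate 3 and 6 and 4 without wild-type replicates 2 and 3.

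Genes of DNA replication and the cell cycle tended lower. Of 31 tested, 0 were higher and 5 lower at an unadjusted p under 0.05, 16.1% beside 4.6% of all genes, and the median was -0.12. The 5 were Rrm2, Pola1, Mcm3, Mcm2 and the mitotic cyclin gene Ccnb2. Rrm2, a subunit of ribonucleotide reductase, read 8.13, 8.39 and 8.28 in wild-type brain against 7.60, 7.79 and 7.80 in null brain, a difference of -0.54 ± 0.12 (limma, adjusted p = 0.318). Pola1, a subunit of DNA polymerase alpha, read 6.55, 7.21 and 6.51 against 6.14, 6.25 and 5.53. Pcna, the replication clamp, overlapped at 9.74, 9.58 and 9.71 against 9.58, 9.65 and 9.89. Leaving out null replicate 1, 8 were lower and the median was -0.21, while without wild-type replicate 2 only 1 was lower.

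Cell type markers were counted next. Of 16 neuron markers 4 were lower and 0 higher at an unadjusted p under 0.05, 25% beside 4.6% of all genes, with a median of -0.02. They were the neurofilament genes Nefl, Nefm and Nefh and the synaptic gene Snap25. Nefl read 10.57, 10.55 and 10.57 against 10.31, 10.22 and 10.34, and Nefm read 7.95, 7.65 and 7.84 against 7.54, 7.41 and 7.28. Nefh read 6.29, 6.36 and 6.43 against 6.35, 3.95 and 5.48 and overlapped. Its null mean lay under the filter level, so it was tested through its wild-type values. Again 4 of the 16 were lower without null replicate 1, and without null replicate 3, or wild-type replicate 1 or 3, 2 of the 16 were lower. The summed signal of all 16 was 0.98, 1.0 and 0.99 times the wild-type mean in the 3 null arrays.

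Excitatory cortical neuron, interneuron and microglia lists had 0 higher and 0 lower. The excitatory list was low on 1 array, with a sum of 0.78 times the wild-type mean on null replicate 1 and 1.03 and 0.99 on the other null arrays. Astrocyte, oligodendrocyte lineage and radial glia lists had 1 higher each, namely Aldh1l1, Pdgfra and Id1. Id1, an inhibitor of differentiation, read 6.12, 5.54 and 5.45 against 6.60, 6.45 and 6.38. Endothelial markers had 3 higher of 15 (20% beside 4.95% of all genes), Ramp2, Abcb1a and Slc2a1. The count was 1 without null replicate 1 or wild-type replicate 3. The sum of the endothelial markers was 1.48, 1.0 and 1.25 times the wild-type mean in null replicates 1, 2 and 3. Myelin genes of mature oligodendrocytes were still near background, with Mobp under 1.8 on every array.

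Regional markers gave isolated values. Rgs16, a G protein regulator of the thalamus, read 6.87, 7.27 and 6.78 against 6.71, 5.90 and 5.67, a difference of -0.88 ± 0.26. Barhl1, of cerebellar granule cells, read 5.36, 5.59 and 5.50 against 5.79, 5.99 and 6.49. Ddc, which makes dopamine and serotonin from their precursors, read 6.94, 6.97 and 6.57 against 7.59, 7.17 and 7.26, while Th, the first enzyme of dopamine synthesis, overlapped. Hypothalamic genes, with Pomc among those listed, had all 8 tested differences above 0, beside 4562 of 8410 over all genes. Their median of 0.25 became 0.13 without null replicate 1. Midbrain and monoamine genes had 9 of 10 above 0, and their median of 0.22 became 0.14 without that array. Striatum, cortex and hippocampus, and hindbrain lists had 0 higher and 0 lower.

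**Figure D4:**
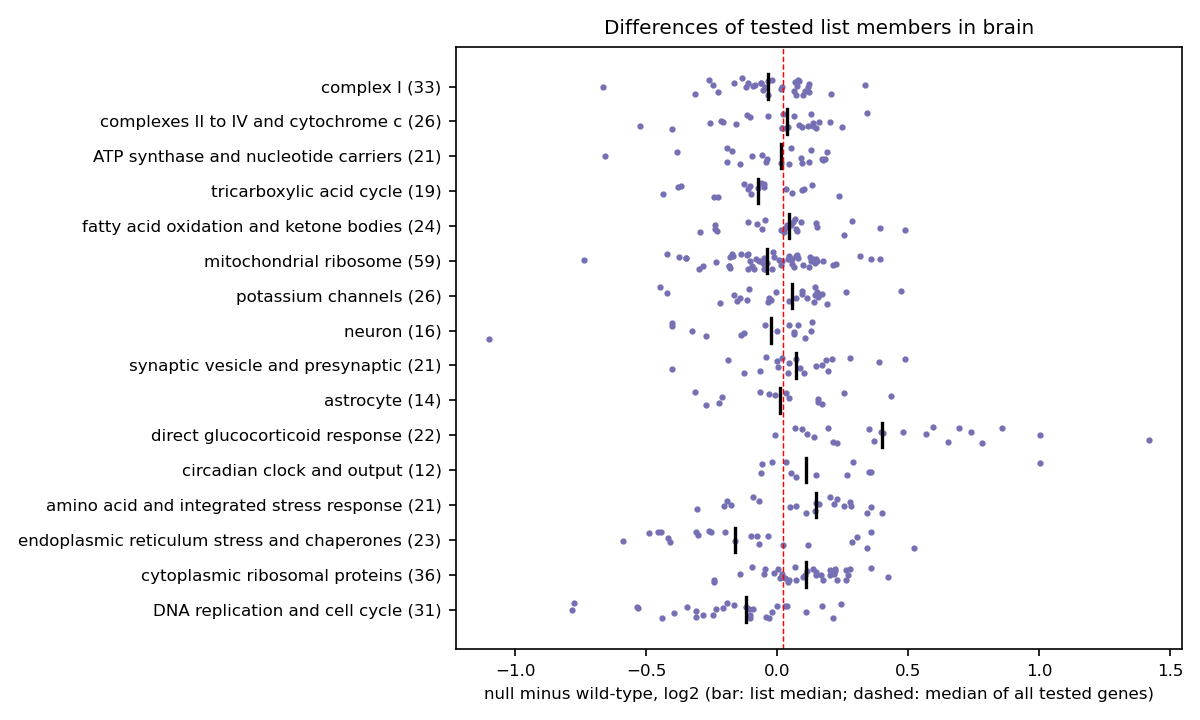
Null minus wild-type differences (log2) of tested members of 16 gene lists in brain, each point a gene by its brightest probe set, bars the list medians and the dashed line the median of all tested genes, 0.02. Energy lists centre near the dashed line, and the direct glucocorticoid response has its median at 0.40.

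To ask where brain stands apart, the brain difference was tested against the mean difference of the other 4 tissues in a limma fit over all 30 arrays. Of the 13577 probe sets, 100 passed (0.737%), 50 above the others (0.368%) and 50 below (0.368%). Of the 87 with 1 symbol, 67 had a brain difference within 0.5 log2 units of 0, and 41 reached an unadjusted p under 0.05 in brain itself. That is 47.1% beside 10.5% of all probe sets, though the brain values also enter the test of the gap. All 43 that were above the others had a negative mean difference in the other tissues, and 43 of the 44 below had a positive one. That mean enters the test of the gap with the opposite sign, so the selection itself favours these signs. The count of probe sets that passed was 10, 11 and 2 without wild-type replicates 1, 2 and 3. It was 94, 67 and 9 without null replicates 1, 2 and 3. Arrays of one genotype and number had the same high or low Xist in all 5 tissues, and the labels do not say whether they came from the same animal. With these numbers as a random block across tissues (correlation 0.03) 159 passed, and with the replicate number as a block within tissue 21 passed. The count was 40 without stomach and 221 without salivary tissue. In stomach the gap between 3' and 5' control probe sets was 1.13 larger in null than in wild-type arrays, and its part in this contrast was not tested beyond the value without stomach.

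The 8 genes with the widest gap mostly had larger differences elsewhere than in brain. Trp53inp1, a stress protein of autophagy, read 7.71, 7.72 and 7.23 in wild-type brain against 7.59, 7.84 and 7.33 in null brain, a difference of 0.03, beside 0.88 in kidney, 2.61 in liver, 2.25 in stomach and 3.60 in salivary tissue. The gap was -2.30 ± 0.46 (limma, adjusted p = 0.0235). Rgs2, which turns off G protein signals, read 8.31, 8.57 and 8.73 against 7.78, 8.37 and 7.94 in brain and was 0.83 to 2.69 higher in the others, a gap of -2.11 ± 0.29 (limma, adjusted p = 0.00142). Pim3, a growth kinase, differed by 0.26 in brain and by 1.09 to 3.12 elsewhere. On its other probe set the gap missed the threshold (limma, adjusted p = 0.099). The coactivator Ppargc1a differed by -0.44 in brain and by 0.53 to 2.51 elsewhere, widest in liver.

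The remaining 4 showed other patterns. Retreg1, a receptor for autophagy of the endoplasmic reticulum, differed by -0.06 in brain and by 3.35 in liver. On its other probe set the gap missed the threshold (limma, adjusted p = 0.0607). Insig2, which holds back cholesterol synthesis, read 7.06, 7.32 and 7.18 against 6.62, 6.93 and 5.86 in brain and was 1.56 higher in liver. Its 2 brighter probe sets overlapped in brain, with differences of -0.10 and -0.12. Their gaps missed the threshold (limma, adjusted p = 0.099 and 0.149). Sema4b, a membrane semaphorin, read 7.66, 7.72 and 8.21 against 7.48, 6.61 and 7.07 in brain, with differences of 0.02 to 1.05 elsewhere and a gap of -1.35 ± 0.23 (limma, adjusted p = 0.00946). Car3, a carbonic anhydrase of muscle, fat and liver, read 4.90, 5.06 and 5.0 against 7.27, 4.99 and 5.98, high on null replicate 1. It differed by -4.21 in liver. Its wild-type mean of 4.99 lay under the filter level, so it was tested through its null values. Without null replicate 1 its gap no longer passed (limma, adjusted p = 0.056). Without liver Car3, Ppargc1a, Retreg1 and Insig2 all missed the threshold.

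Several replication genes stood above the mean of the other tissues in brain. The list's median was -0.12 in brain, -0.30 in kidney, 0.05 in liver, -0.84 in stomach and -0.99 in salivary tissue, so liver did not lie below brain. Of the 31 tested, 6 passed above the other tissues, which is 19.4% beside 0.357% of all genes, namely Pcna, Mcm4, Prim1, Cdk1, Ccna2 and Ccnd2. Pcna differed by 0.03 in brain, -0.12 in liver, -0.48 in kidney, -1.14 in stomach and -1.85 in salivary tissue. Mcm4, a subunit of the replicative helicase, differed by 0.11 in brain and by -1.61 in salivary tissue. Ccna2, a cyclin, differed by 0.24 in brain and 0.06 in liver. Cholesterol genes showed the same in 2 cases. Idi1 and Sqle, enzymes of the synthesis pathway, differed by -0.14 and 0.06 in brain and by -1.71 in liver each.

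**Figure D5:**
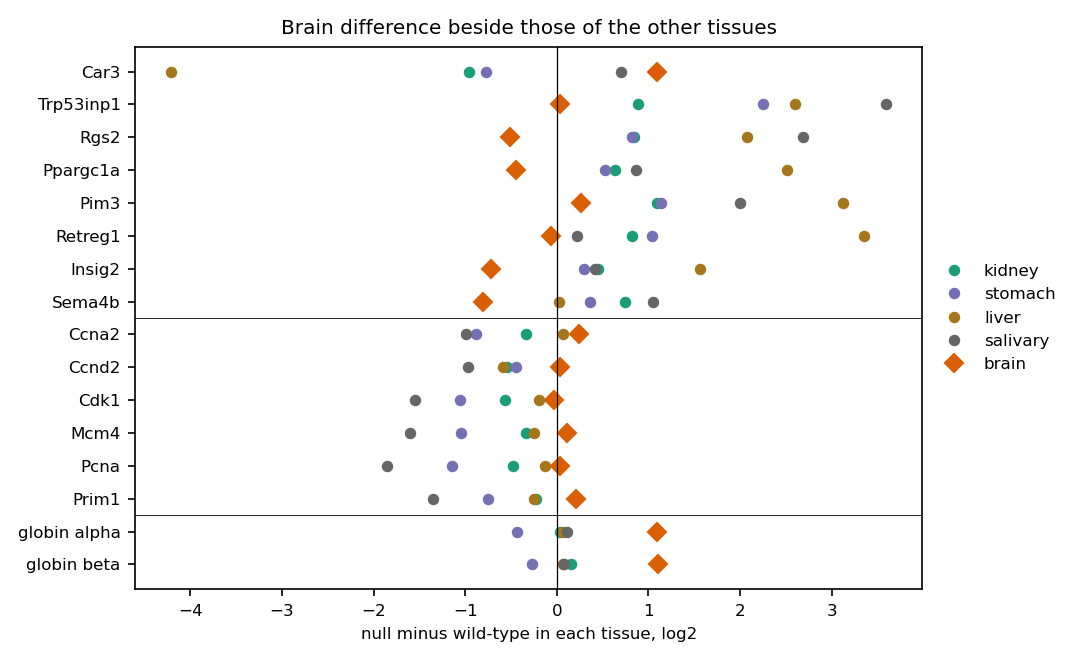
Null minus wild-type difference (log2) in brain (orange diamonds) and in the other 4 tissues (circles), for the 8 genes with the widest gap, 6 replication genes and 2 globin probe sets. Brain sits near 0 for the replication genes while salivary tissue reaches -1.85. The globins lie at 1.09 and 1.11 in brain and between -0.44 and 0.16 elsewhere.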

How the data were processed

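Total RNA of neonatal brain, 3 arrays per genotype, was analysed beside the other 24 arrays of the series. The values deposited by the authors are log2 signals. MAS5 computed them, according to the submitters' processing notes. Its version, scaling target and settings are not given in sources used here. Base 2 was settled from the values, since the 2% trimmed mean of the linear signal then lay between 149.988 and 150.008 on all 30 arrays. Values were used as given.

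Symbols came from the platform's probe table, which lists 1 symbol for 20380 probe sets, several for 691 and 0 for 1555. Those of several symbols were tested but name no single gene. Null and wild-type arrays were fitted in limma 3.58.1 (R 4.3.3, lmFit and eBayes with trend) on probe sets whose mean reached the 40th percentile, with Benjamini-Hochberg adjustment, and brain was tested against the mean of the other 4 tissues over 10 groups. Lists (56, with 1259 genes, 1053 of them on the array) took each gene's brightest probe set, and each list's 4 members of smallest p could be named. Single genes named besides Esrrg were the 12 of smallest p in each direction, since none passed, and the 8 widest gaps to the other tissues. Other genes were chosen after their values were seen: Esrra, Tnnc2, Col1a1, Tubb3, Prl, Alas2, Fos, Ints7, Mobp, Pcna, Mcm4, Prim1, Cdk1, Ccna2, Ccnd2, Ccnb2, Idi1, Sqle, Atp5g1, Atp5g3, Acsl6, Cga, Edem1, Hsp90b1, Xbp1, Pdia6, Hspa5, Sgk1, Errfi1, Cebpd, Mt1 and Fkbp5, as were the globin probe sets. Members and lists were chosen with earlier results of these data known. Sequences are from RefSeq (GRCm38.p6). Steps were tested on simulated data. The number of arrays limits the precision.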

Additional observations from a re-analysis of the deposited data

Results flagged for a closer look

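Each of the following differed between brain and the mean of the other 4 tissues by the test of that difference (limma over 30 arrays, adjusted p under 0.05), and the cause was not tested. The gap was 2.40 for Car3, -2.30 for Trp53inp1, -2.11 for Rgs2, -1.58 for Ppargc1a, -1.58 for Pim3, -1.42 for Retreg1, -1.40 for Insig2 and -1.35 for Sema4b. Car3 had a wild-type brain mean under the filter level and was tested through its null values, highest on null replicate 1. Other tested probe sets of Insig2, Retreg1 and Pim3, and some of Ppargc1a, missed the threshold (limma, adjusted p of 0.0607 to 0.168). In all, 100 probe sets differed in this way. The gap of Rgs2 passed under every alternative run, namely quantile normalization, the replicate block within tissue, the random block across tissues and each left-out tissue or brain array. That of Sema4b missed the threshold without wild-type replicate 3, and those of the other 6 missed it in at least 4 such settings each.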

How the results depend on the processing

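The count of 0 in brain was also 0 under a floor, a pseudocount, no filter or a stricter one, equal medians, no trend, Xist as a covariate, the replicate block alone and a threshold of 0.01. It was 2 with quantile normalization, 2 with the Gapdh 3' minus 5' difference as covariate, 2 at a threshold of 0.10, 5 with array weights and 5 in the fit over all 30 arrays. The replicate block together with the Gapdh difference gave 128, with 1 residual degree of freedom. Same-numbered arrays did not deviate together (correlations of deviations 0.06, 0.08 and -0.16), so the numbers were not taken as pairing. Leaving out single arrays gave 0 to 56. The 2 globin probe sets 1452757_s_at and 1428361_x_at made up the count under quantile normalization and under the Gapdh covariate. The count of 100 probe sets that set brain apart from other tissues was 21 with the replicate block within tissue, 159 with arrays of one genotype and number as a random block across tissues, an alternative chosen after seeing the data, 40 without stomach and 221 without salivary tissue, and 2 to 94 as single brain arrays were left out. The cause of these moves was not tested. No difference that passed changed direction under these alternatives. By any tested probe set in place of the brightest, 0 list members passed as well. Counts of list members at an unadjusted p are descriptions, and leaving out single arrays for them was chosen after seeing the data. With 3 arrays a group and no detection calls used, small differences of dim probe sets are poorly resolved.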
